A study of Rattus norvegicus with 6 samples.

Results

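Cytosolic ribosomal protein genes encode the proteins of the ribosome that translates nuclear-encoded mRNA. They were found by name, as rows called Rpl or Rps with a number and at most 1 trailing letter (a, x, y or l), or Rpsa, Rplp0, Rplp1 or Rplp2. The rule gave 99 rows of the 30498 genes in the tables. These rows carried 72 symbols, 30 of the small subunit (36 rows) and 42 of the large subunit (63 rows). The 9 Rps6k rows, which encode kinases, and the 5 rows with -ps in the name were left out, as were 10 further Rpl or Rps rows outside the rule, such as Rpl22l1. Rpl7, Rpl10, Rpl13a, Rpl27a, Rpl36, Rpl37a, Rpl41, Rps7 and Rps26 are not analysed here. The rule used names and no expression values, but the gene group was chosen with earlier results of these data known.

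The 2 groups were brains of newborn rat pups whose dams had been calorically restricted (CR, 3 libraries) and brains of pups of control dams (control, 3 libraries). Caloric restriction of the dam serves as a model of fetal growth restriction. Per the labels, the pups of both groups were delivered surgically and the whole brain was taken at birth. Markers of brain regions, given below, differed strongly between the groups. The labels give no strain, gestational day, sex, or extent of the restriction, and leave unstated whether each library is a different pup or litter. The p-values below therefore measure only the spread between these libraries, which may be technical in part.

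Each ribosome holds single copies of most of its proteins around the ribosomal RNA, so the cell makes these proteins in matched amounts. Most of their mRNAs begin with a C followed by a run of pyrimidines, the terminal oligopyrimidine tract, through which mTORC1 and the RNA-binding protein Larp1 govern their translation according to nutrient supply. That control acts mainly on translation, so mRNA levels alone do not show how much protein was made. In the perinatal brain the demand for new ribosomes is high in dividing progenitors and in growing neurons.

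The start regions of 10 of these genes are shown because the tract is the sequence feature most tied to this gene class, and to set the called genes that have a RefSeq entry (Rpl22, Rps2 and Rps27l) beside genes that were not called. Each line gives 15 bases before and 15 bases from the RefSeq start on assembly GRCr8, read on the gene's strand. Capitals mark the longest run that starts with C and goes on with at least 5 pyrimidines (C or T), and any shorter run is left in lower case; where it begins at the first base shown it may extend upstream.
Rpl22 (chr5:168117946-168117975, plus strand): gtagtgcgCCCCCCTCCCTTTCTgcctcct
Rps2 (chr10:14251833-14251862, plus strand): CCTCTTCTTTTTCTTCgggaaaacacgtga
Rps27l (chr8:76443643-76443672, plus strand): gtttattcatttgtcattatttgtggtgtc
Rps27 (chr2:177964592-177964621, minus strand): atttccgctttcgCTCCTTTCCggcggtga
Rplp0 (chr12:46718376-46718405, minus strand): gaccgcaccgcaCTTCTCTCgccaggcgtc
Rplp1 (chr8:71290858-71290887, minus strand): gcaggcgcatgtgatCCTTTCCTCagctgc
Rplp2 (chr1:205975906-205975935, plus strand): CCTTTCgccgccggacgccgccgaggtcgc
Rps6 (chr5:106420526-106420555, minus strand): gacgCCTCCTaggcggtcggctgtgtcaag
Rpl3 (chr7:113507976-113508005, minus strand): ccagcgcctgctcgatctctatcggcggcg
Rpl3l (chr10:14258431-14258460, plus strand): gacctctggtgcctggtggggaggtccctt

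Of these, Rps2 had 16 bases of such a run in its window and Rpl22 had 15, and no such run was found in the windows of Rps27l, Rpl3 and Rpl3l. RefSeq had a start window for 56 of the 72 symbols (57 windows). A run was present in 41 of these 57 windows (71.9%), against 21.2% of the 33469 windows of all RefSeq genes. Over 300 bases (250 before the start and 50 after it) and on both strands, CCGGAAG stood in 29.8% of the ribosomal protein windows and in 8.75% of all windows. CTCGCGA stood in 19.3% of the ribosomal protein windows and in 1.68% of all windows, and TATAAA in 12.3% and 14.2%. The last 3 motifs were picked after their shares had been seen. A match is a description of the letters and not a bound site.

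The levels of these genes were high in every library. Values are FPKM as the authors deposited them, the reads of a gene scaled by its exon length and by the depth of the library. Of the 72 symbols, 64 had a row with a mean above 100 FPKM and 22 a row above 1000 FPKM, and 46 ribosomal protein rows were among the 100 genes with the highest FPKM of all. Together they took 6.15%, 5.88% and 5.57% of the assigned reads in CR libraries 1 to 3, against 6.16%, 6.28% and 6.04% in control libraries 1 to 3. Depth was 22161522, 25734737 and 25690833 assigned reads in CR and 14030961, 25345354 and 18429571 in control, so that 3 reads on 1 kb of exon amounted to 0.117 to 0.214 FPKM. Such floors cover counting error only.

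**Figure D1:**
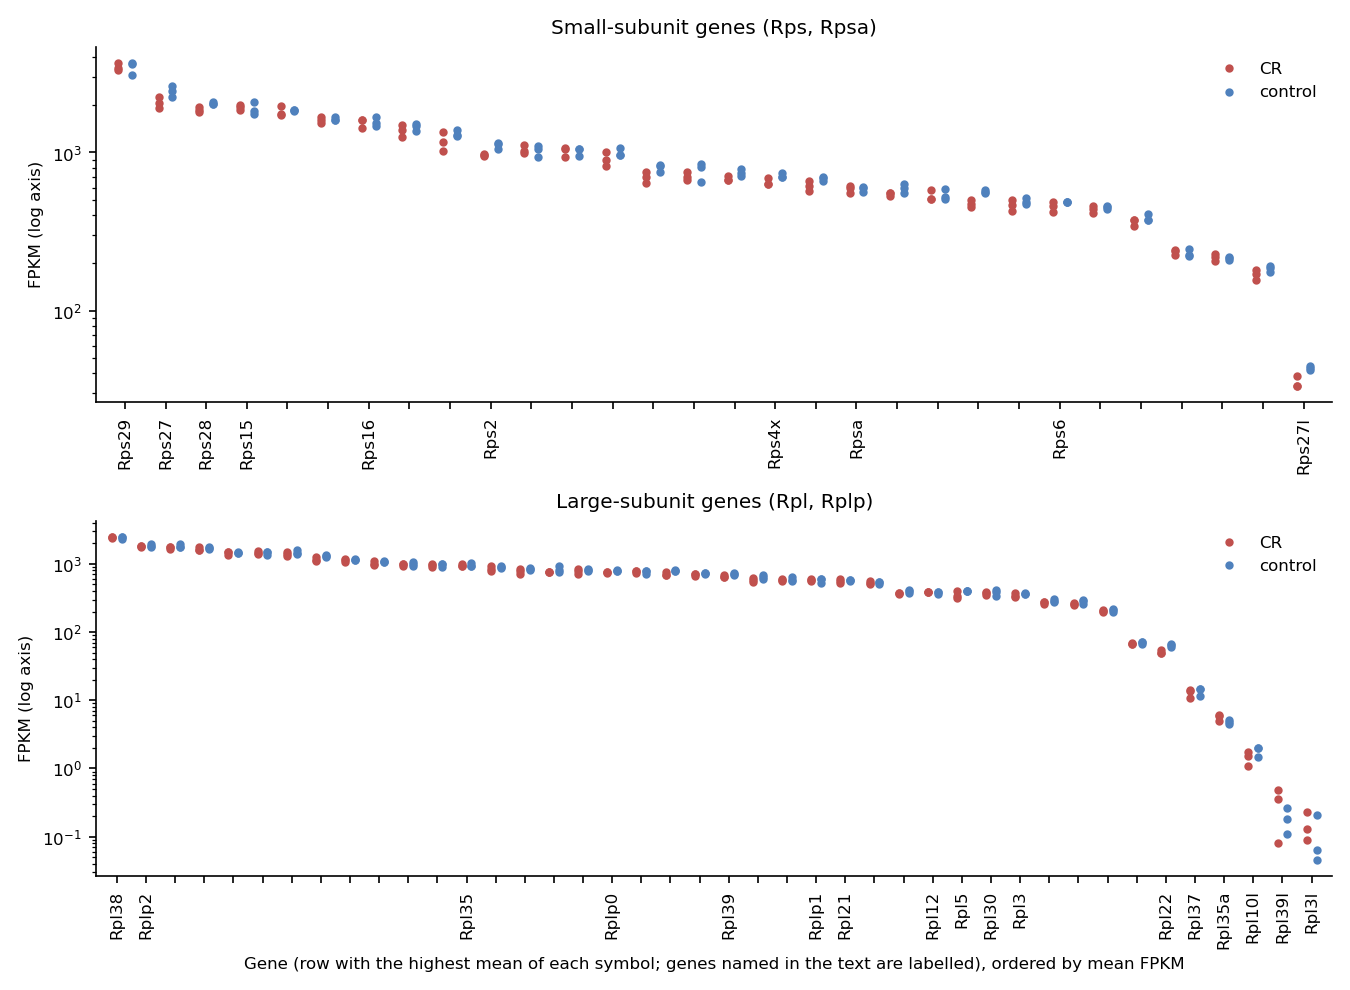
Level of each ribosomal protein gene in FPKM (vertical, log axis) in the 3 CR libraries (red, left) and the 3 control libraries (blue, right), small-subunit genes above and large-subunit genes below, ordered by mean. Each point is 1 library, and genes named in the text are labelled. Most genes sit above 100 FPKM with the groups close together, and Rpl37, Rpl35a, Rpl10l, Rpl39l and Rpl3l lie far below the others.

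The highest row was Rps29, a small zinc-binding protein of the small subunit, with 3433, 3675 and 3316 FPKM in CR and 3111, 3671 and 3616 FPKM in control. Rpl38, a large-subunit protein known in mouse for its part in translating Hox mRNAs, followed with 2454, 2392 and 2439 FPKM in CR and 2501, 2469 and 2294 FPKM in control. Both genes had overlapping groups, with log2 fold changes of 0.01 (SE 0.0853) for Rps29 and 0.00 (SE 0.0603) for Rpl38. Rps15, a small-subunit protein, had 1985, 1954 and 1852 FPKM in CR and 2079, 1841 and 1753 FPKM in control, again overlapping.

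The small-subunit protein gene Rps28 had 1866, 1937 and 1806 FPKM in CR and 2025, 2075 and 2030 FPKM in control. All 3 CR values lay below all 3 control values, but the difference of -0.13 on the log2 scale (SE 0.0554) was not past the threshold (limma adjusted p = 0.112). FPKM fell with annotated exon length across the 64 genes above 100 FPKM (Spearman's rho -0.78 across genes, lengths of 339 to 3504 nt), so the order of FPKM levels is also an order of annotated length. These points share libraries and are not independent, and no p is given. By reads alone the order was Rps29 with 2450 RPM (assigned reads scaled by depth but not by length), Rps16 with 1617 RPM, Rpl35 with 1606 RPM and Rpl21 with 1538 RPM.

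The design asks how gene expression in the newborn brain differed after restriction of the dam. Of the 86 ribosomal protein rows that averaged 0.5 FPKM or more, 4 were lower in CR, 1 was higher and 81 did not pass (limma on log2(FPKM + 1) over 15247 genes, Benjamini-Hochberg adjusted p under 0.05). Rpl22, Rps27l and Rps2 were among the lower ones and are described below. The called share was 5.81% of the ribosomal protein rows, against 33.9% of all genes tested (16.2% lower and 17.7% higher). Among the 574 other genes that averaged 100 FPKM or more, 48.4% were called. By the unadjusted limma p, 11 of the 86 rows were under 0.05, against 6872 of all 15247 genes tested and 326 of the 574 other high genes.

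Other scalings gave more lower calls. With TPM scaling (every library set to the same FPKM total) 13 rows were lower and 1 higher, with quantile normalization 19 were lower and none higher, and with limma-voom on reads recovered from FPKM 8 were lower and none higher. Leaving out CR library 1 gave 14 lower rows, while leaving out CR library 3 gave 3. The lower rows were 22.1% of the 86 with quantile normalization, against 18.5% of all genes tested, and 16.3% against 11.6% without CR library 1. They were 9.30% against 17.7% with limma-voom, and 3.49% against 10.2% without CR library 3. With TPM scaling 13 of the 86 rows were lower, against 18.6% of all genes tested. In either direction, TPM scaling called 16.3% of the 86 rows, against 34.2% of all genes tested. Rpl22 and Rps27l were called under all 19 settings fitted, and Rps2 under 14 of them.

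Rpl22, an RNA-binding protein of the large subunit, had 54.5, 49.8 and 49.4 FPKM in CR and 65.7, 63.6 and 59.4 FPKM in control. The groups did not overlap, and the means were 51.2 ± 2.81 FPKM in CR and 62.9 ± 3.20 FPKM in control (SD, n = 3 each), a ratio of 0.814. The log2 fold change was -0.29 (SE 0.0581, limma adjusted p = 0.00821). The gene (ENSRNOG00000069581) lies at chr5:162833740-162843368 on mRatBN7.2, the build of the tables, with 3712 nt of annotated exon, and 4481, 4760 and 4712 reads in CR and 3424, 5987 and 4067 reads in control stand behind these values.

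Rpl22l1, the paralog of Rpl22 that can take its place in the ribosome and lies outside the name rule, went the other way. It had 175, 179 and 168 FPKM in CR and 132, 129 and 123 FPKM in control. The groups did not overlap, and the log2 fold change was 0.44 (SE 0.0464, limma adjusted p = 0.000979), from means of 174.0 ± 5.71 FPKM in CR and 128 ± 4.40 FPKM in control (SD, n = 3 each).

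Rps27l, a close paralog of Rps27 known in human cells as a p53 target, had 38.3, 33.6 and 33.3 FPKM in CR and 43.6, 41.8 and 44.5 FPKM in control. Its groups did not overlap either, and CR library 1 was the nearest to control. The means were 35.04 ± 2.80 FPKM in CR and 43.3 ± 1.38 FPKM in control (SD, n = 3 each), and the log2 fold change was -0.30 (SE 0.0635, limma adjusted p = 0.0102). The gene (ENSRNOG00000050473) lies at chr8:67562483-67567418 on mRatBN7.2.

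Rps27, the small-subunit zinc-finger protein that Rps27l resembles, had 2236, 2048 and 1900 FPKM in CR and 2230, 2455 and 2641 FPKM in control. CR library 1 lay above the lowest control library, so the groups overlapped. The difference of -0.24 (log2, SE 0.0881) was not past the threshold (limma adjusted p = 0.0678). It was called under 6 of the 19 settings, among them without CR library 1 (adjusted p = 0.0465) and without control library 1 (adjusted p = 0.0455).

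Rps2, a core protein near the mRNA entry of the small subunit, had 961, 977 and 954 FPKM in CR and 1140, 1142 and 1059 FPKM in control. The CR libraries lay close together, all below control. The means were 964 ± 11.8 FPKM in CR and 1114 ± 47.6 FPKM in control (SD, n = 3 each), with a log2 fold change of -0.21 (SE 0.0525, limma adjusted p = 0.0200). Rps2 (ENSRNOG00000014179, chr10:13747301-13749163 on mRatBN7.2) lost its call without CR library 2, CR library 3, control library 1 or control library 2, and with no filter on low values, with adjusted p between 0.0593 and 0.0713.

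The only row called higher was a further copy of Rpl38 (ENSRNOG00000049047), a 1-exon gene of 213 nt at chr16:10182742-10182954 on mRatBN7.2. It had 10, 2 and 8 reads in CR and 0, 1 and 1 reads in control, or 2.12, 0.365 and 1.46 FPKM and 0, 0.185 and 0.255 FPKM. The log2 fold change was 0.94 (SE 0.285, limma adjusted p = 0.0384). It passed the filter on low values only through its CR libraries, held 0.0155% of the reads of its symbol, and was called under 9 of the 19 settings.

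**Figure D2:**
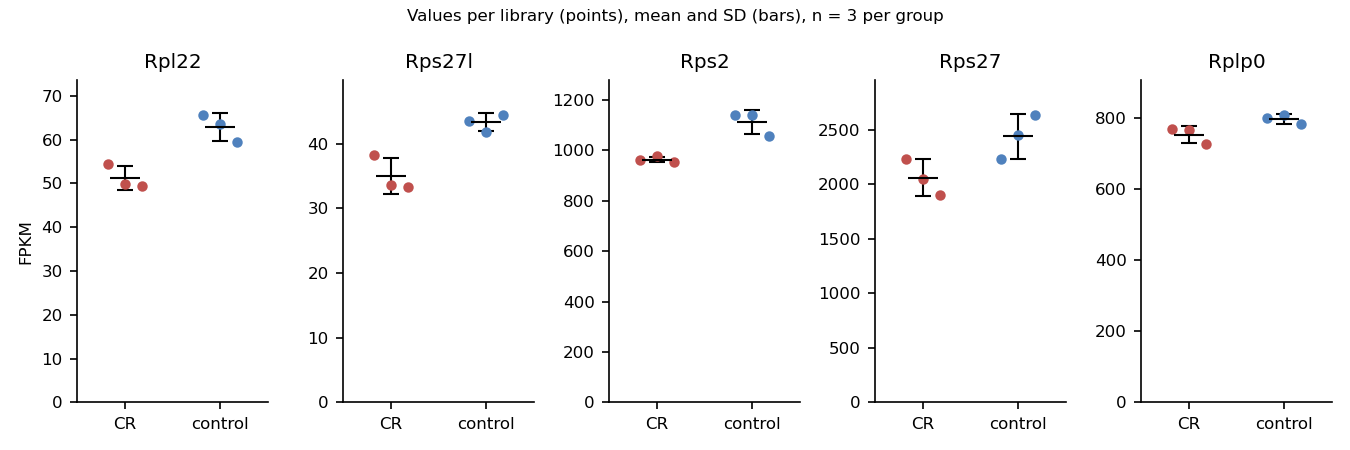
FPKM per library (vertical, from 0) for Rpl22, Rps27l and Rps2, which were called lower, for Rps27, which was not called, and for the stalk gene Rplp0, with CR (red) left of control (blue). Bars are means and SD of 3 libraries; the groups do not overlap for Rpl22, Rps27l, Rps2 and Rplp0, and they overlap for Rps27.

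The changes of the whole set were small and mostly of 1 sign. Taking for each symbol the row with the highest mean, 70 symbols were tested, and 58 of them had a negative log2 fold change and 12 a positive one. The range was -0.30 for Rps27l to 0.19 for Rpl35a, and 63 of the 70 (90%) lay within 0.2 of 0, against 50.6% of all genes tested and 57.0% of the other genes above 100 FPKM. The median was -0.07 over these 70 and -0.08 over the 86 rows, against 0.01 over all genes tested. All CR values lay below all control values in 14 of the 70, and above them in none. Over the 86 rows these counts were 17 and 1, against 24.3% and 26.1% of all genes tested. The highest increase above 100 FPKM was that of Rpl12, with a log2 fold change of 0.04 (SE 0.0434).

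**Figure D3:**
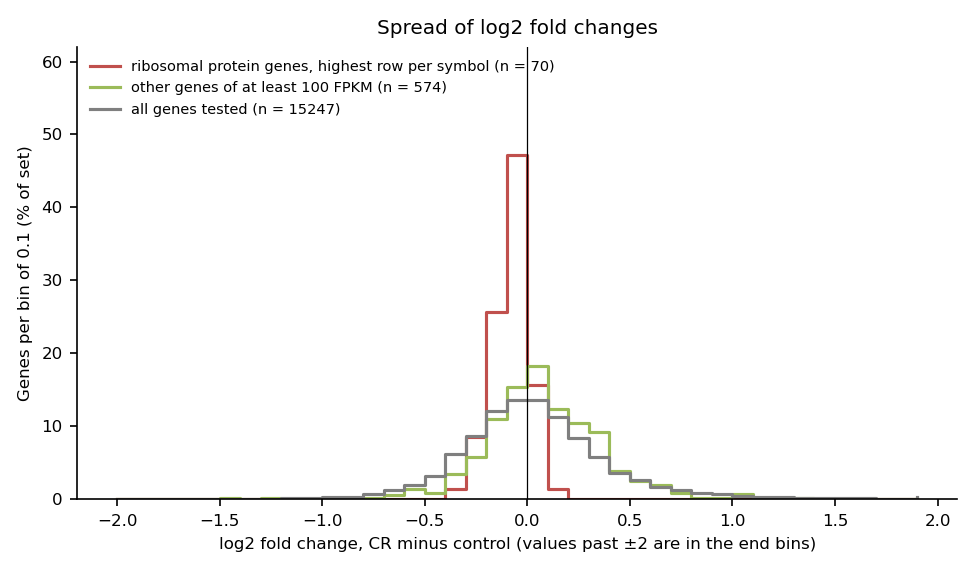
Share of genes (vertical, percent of each set) per bin of 0.1 in log2 fold change, CR minus control (horizontal), for 70 ribosomal protein genes (red), 574 other genes of at least 100 FPKM (green) and all 15247 genes tested (grey). The ribosomal protein genes form a narrow peak just below 0, within -0.30 and 0.19, while the other sets spread past 0.5 on both sides.

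The counts were small in both subunits. Among small-subunit genes 3 of 30 (10%) were lower and none higher, with a median log2 fold change of -0.10 and 25 negative values. Among large-subunit genes 1 of 40 (2.5%) was lower and none higher, with a median of -0.06 and 33 negative values. Of all genes tested 16.2% were lower and 17.7% higher. Summed FPKM of the large subunit over that of the small subunit was 1.07 ± 0.0178 in CR and 1.05 ± 0.0225 in control (SD, n = 3 each), which overlapped. No test of a difference between the subunits was made.

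Summed over all 99 rows, ribosomal protein mRNA came to 62016, 59673 and 56473 FPKM in CR and 62047, 63500 and 60953 FPKM in control. CR library 1 lay within the control range, and CR libraries 2 and 3 below it. The means were 59387 ± 2783 FPKM in CR and 62167 ± 1278 FPKM in control (SD, n = 3 each), a difference of -4.47%, about the size of the SD in CR. As a share of the summed FPKM of all genes, ribosomal protein mRNA was 14.5%, 13.96% and 13.4% in CR and 14.9%, 15.3% and 14.8% in control. On that scale all CR libraries lay below all control libraries, and the difference was -6.85%. CR library 3 held the lowest value for 48 of the 70 genes (68.6%, against 11.6% of all genes tested) and the highest for none. Without it, the median log2 fold change over the 86 rows was -0.03.

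**Figure D4:**
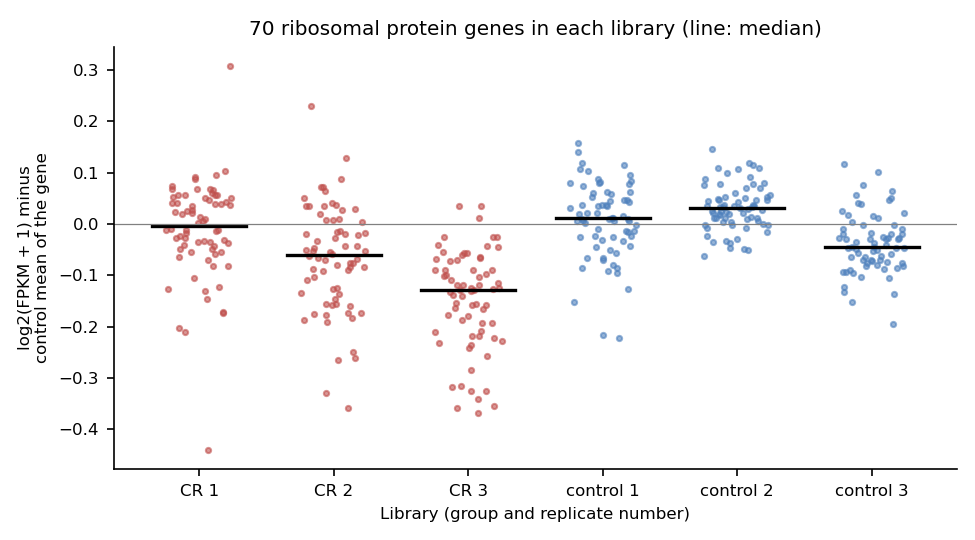
Each of 70 ribosomal protein genes in each library (points) as log2(FPKM + 1) minus the gene's control mean (vertical), with CR libraries (red) left of control libraries (blue) and the median as a line. The medians are -0.00, -0.06 and -0.13 in CR and 0.01, 0.03 and -0.05 in control, with CR library 3 lowest.

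CR library 1 was thus close to control and CR library 3 farthest from it. Markers of red blood cells, whose precursors carry ribosomal protein mRNA, summed to 1418, 874 and 676 FPKM in CR and 1741, 1200 and 1115 FPKM in control. Of the 13 red cell markers in the tables, 8 were tested, 1 of them (Hba-a3) was lower and none higher, and Hbe2 was at 0 in every library. Markers of dividing cells summed to 122 to 136 FPKM in CR and 138 to 158 FPKM in control, with 3 of 10 lower (Mcm4, Top2a and Pcna), a share (30.0%) near the 33.9% called among all genes tested, and none at 0.

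Markers of brain regions differed far more than the ribosomal protein genes. Those of the dorsal telencephalon, which forms the cortex, summed to 219 to 319 FPKM in CR and 537 to 649 FPKM in control. Of these, 10 of 12 were lower and none was at 0. Ventral telencephalon markers summed to 143 to 170 FPKM in CR and 185 to 223 FPKM in control, with 8 of 14 lower and 1 higher (Nkx2-1). Those of midbrain, cerebellum and hindbrain summed to 82.9, 97.0 and 120 FPKM in CR and 8.69, 5.15 and 12.8 FPKM in control. Of these, 18 of the 20 tested were higher. Pax7, Pou4f2, Hoxa2, Hoxb3 and Hoxb5 were at 0 in all control libraries. Markers of the diencephalon summed to 116 to 171 FPKM in CR and 8.03 to 24.5 FPKM in control, with 9 of 9 tested higher. Several markers of both lists, among them Pax7 and Otp, passed the filter on low values only through their CR libraries. Their direction was thus nearly set by the filter. Glial markers also differed. Astrocyte markers summed to 1225 to 1320 FPKM in CR and 789 to 961 FPKM in control (8 of 9 higher), microglial markers to 56.1 to 64.8 FPKM in CR and 31.6 to 44.8 FPKM in control (4 of 8 higher), and those of the oligodendrocyte lineage to 66.2 to 77.1 FPKM in CR and 49.5 to 57.2 FPKM in control (4 of 9 higher). For comparison with these marker counts, 17.7% of all genes tested were higher and 16.2% lower. The labels call all 6 samples whole brain. Neuronal markers were high in all (4502 to 4691 FPKM in CR and 4078 to 4618 FPKM in control), with 4 of 10 higher and 2 lower. The part of red cells, dividing cells, glia and regional makeup in the ribosomal protein values was not tested. In bulk tissue, fewer cells of a type and less RNA per cell cannot be told apart.

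The stalk proteins, which recruit elongation factors to the large subunit, were near their control levels. Rplp0, the base of the stalk, had 767, 765 and 726 FPKM in CR and 799, 809 and 781 FPKM in control. The groups did not overlap, but the difference of -0.08 (log2, SE 0.0479) was not past the threshold (limma adjusted p = 0.224). Rplp1 had 590, 603 and 564 FPKM in CR and 596, 603 and 527 FPKM in control, and Rplp2 had 1795, 1814 and 1805 FPKM in CR and 1940, 1836 and 1744 FPKM in control. Both overlapped, with log2 fold changes of 0.03 (SE 0.0639) for Rplp1 and -0.03 (SE 0.0595) for Rplp2.

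Rpsa, a small-subunit protein also known as the laminin receptor precursor, had 617, 592 and 553 FPKM in CR and 566, 603 and 598 FPKM in control, which overlapped. Rps6, the small-subunit protein that S6 kinases phosphorylate downstream of mTORC1, had 487, 459 and 418 FPKM in CR and 486, 487 and 485 FPKM in control. The control values of Rps6 were almost equal and CR library 1 was at their level, and the difference of -0.10 (log2, SE 0.0612) was not past the threshold. Rps4x, an X-linked small-subunit gene, had 691, 629 and 628 FPKM in CR and 742, 695 and 699 FPKM in control. Its groups did not overlap, and the difference of -0.13 (log2, SE 0.0575) was not past the threshold (limma adjusted p = 0.111).

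Several ribosomal proteins have a paralog used in particular tissues, and those paralogs were low in these brains. Rpl3, a core protein near the peptidyl transferase centre, had 373, 343 and 329 FPKM in CR and 367, 372 and 358 FPKM in control. Rpl3l, its paralog of striated muscle in mouse and human, had 0.131, 0.226 and 0.0907 FPKM in CR and 0.208, 0.0460 and 0.0632 FPKM in control, from 10 reads or fewer per library. Rpl39, a small protein of the exit tunnel, had 684, 638 and 639 FPKM in CR and 716, 739 and 685 FPKM in control. All CR values of Rpl39 lay below control, CR library 1 only just, and the log2 fold change was -0.13 (SE 0.0537, limma adjusted p = 0.110).

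Rpl39l, known in mouse from the testis, had 0.482, 0.356 and 0.0792 FPKM in CR and 0.181, 0.261 and 0.110 FPKM in control. Rpl10l, an intronless paralog of Rpl10 known in mouse from male germ cells, had 1.07, 1.76 and 1.504 FPKM in CR and 2.003, 2.01 and 1.45 FPKM in control. Both overlapped between the groups. Rpl3l and Rpl39l were under the filter and were not tested, and Rpl10l did not pass (limma adjusted p = 0.293).

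Many further rows are copies of these genes, and 16 symbols had more than 1 row. Of the 27 further rows 22 had 1 exon, 16 reached 0.5 FPKM and 11 did not. Reads of near-identical copies can be split or lost in counting, so these rows are uncertain. The 5 lowest rows were copies of Rpl38 (ENSRNOG00000029377 and ENSRNOG00000030747), Rps20 (ENSRNOG00000029627 and ENSRNOG00000030345) and Rpl35a (ENSRNOG00000031641), each with 1 to 8 reads over all libraries. In most of the 16 symbols a single row held nearly all reads. The exceptions were Rpl30 and Rpl12, and Rpl37, whose second row held 4.84%.

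For Rpl30, the row with the highest FPKM was a 1-exon gene of 491 nt at chr10:36831500-36831990, with 377, 386 and 349 FPKM in CR and 407, 385 and 338 FPKM in control. The row with most reads (81.03%) was another gene of 4569 nt at chr7:65645991-65651363, with 186, 162 and 146 FPKM in CR and 180, 179 and 184 FPKM in control. RefSeq places Rpl30 on chromosome 7. Both rows overlapped between the groups, with log2 fold changes of -0.02 (SE 0.0765) on chromosome 10 and -0.14 (SE 0.0821) on chromosome 7.

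Rpl12 at chr3:16264251-16266642, a protein at the base of the stalk, had 393, 385 and 387 FPKM in CR and 388, 381 and 365 FPKM in control. Its 1-exon copy at chrX:1196729-1197226 had 8.68% of the symbol's reads, with 84.7, 89.8 and 82.5 FPKM in CR and 72.8, 84.9 and 75.5 FPKM in control. Rpl35a and Rpl37 were represented by rows of 1 exon that RefSeq does not place on the same chromosome. They had 4.93 to 6.16 FPKM in CR and 4.44 to 5.13 FPKM in control for Rpl35a, and 10.7 to 13.9 FPKM in CR and 11.5 to 14.7 FPKM in control for Rpl37. These low levels describe those rows and not the multi-exon genes, which are not analysed here. Of the 72 rows with the highest mean of their symbol 67 were on the chromosome that RefSeq gives for the symbol, and those of Rpl30, Rpl35a and Rpl37 were not.

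The change was also set beside a pyrimidine run, as defined above, in the window around the RefSeq start, called a tract here. The run could lie anywhere in the 30 bases and need not be where the mRNA begins. In Rplp2 and Rps6 it lay wholly before the RefSeq start. The 41 tested genes with a tract had a median log2 fold change of -0.08 (range -0.29 to 0.19), and the 14 tested genes without one had a median of -0.05 (range -0.30 to 0.02). Windows were matched by symbol, and the change is that of the row with the highest mean. The 0.19 is that of Rpl35a, whose row lies off its RefSeq chromosome, so its window belongs to another locus. The same holds for Rpl30 and Rpl37 where they have a window. Genes with a tract included Rpl22 and Rps2, and those without included Rps27l. No test was made of this difference.

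Genes that make ribosomes were examined beside the ribosomal protein genes. Of 53 ribosome biogenesis factors 24 (45.3%, against 16.2% of all genes tested) were lower and none higher, with a median log2 fold change of -0.18 (0.01 over all genes tested). They included Wdr75 (13.8 ± 0.386 FPKM in CR and 18.6 ± 1.30 in control) and Utp20 (4.05 ± 0.197 FPKM in CR and 5.64 ± 0.334 in control), both of the complex that processes small-subunit precursor RNA. Utp14a (log2 fold change -0.37) and Efl1 (-0.37), a GTPase that helps to free the large subunit for translation, were also lower. Of 15 genes of RNA polymerase I, which transcribes ribosomal RNA, and its factors, 6 (40.0%) were lower and none higher. Polr1b, the second largest subunit, had 3.77, 3.66 and 4.66 FPKM in CR and 5.54, 6.06 and 6.38 FPKM in control (log2 fold change -0.48, SE 0.101, limma adjusted p = 0.0103). Ubtf (-0.36), Polr1e (-0.33) and Polr1g (-0.31) were also lower.

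Among regulators of ribosome production and of tract-bearing mRNAs, 4 of 31 (12.9%) were higher and 6 (19.4%) lower, close to the 17.7% and 16.2% of all genes tested. Mycn, a transcription factor of dividing neural progenitors that raises ribosome production, had 17.7, 18.5 and 15.7 FPKM in CR and 37.8, 39.6 and 31.2 FPKM in control (log2 fold change -1.02, SE 0.0985, limma adjusted p = 0.000717). Mycl (-0.71), the translational repressor gene Eif4ebp2 (-0.62) and Larp4 (-0.48) were lower too, as were Myc (-0.37) and Tsc1 (-0.23), whose product inhibits mTORC1. Those higher were Sesn3 (0.56), an inhibitor of mTORC1, Tbc1d7 (0.38), a partner of Tsc1, Rraga (0.30), which activates mTORC1, and Mtor itself (0.18). Of 30 initiation factors 5 were lower and 1 higher (20.0% called, against 33.9% of all genes tested), led by Eif1b (-0.34). Of 13 elongation and termination factors 23.1% were called: Eif5a2 (0.54) and Eef1a2 (0.39) were higher and Abce1 (-0.30), which splits ribosomes for recycling, was lower. Over the 6 lists of such genes 50 of 146 were called (34.2%, near the 33.9% of all genes tested). Such calls numbered 24 without CR library 2 and 28 without CR library 3. The share of all genes tested that was called also fell, to 21.3% and 21.9%. The part in these counts of the markers of dividing cells and of the dorsal telencephalon given above was not tested.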

How the data were processed

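Each of the 6 libraries had 1 deposited table, in which the authors gave FPKM by Ensembl gene together with exon length and coordinates, per the file headers. The submitters' processing notes name the build mRatBN7.2 and the tools featureCounts 2.0.1, STAR 2.7.10a, cutadapt 1.16, Trimmomatic 0.36 and Trim Galore 0.4.4. Their roles and settings are not given in the sources used here. The library kit was stranded, per the labels' protocols, but the strand setting of the counting is unknown, and overlapping genes on opposite strands could share reads.

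FPKM times length gave whole reads for 100% of values (within 0.05), from which depth was worked out. The 15247 genes that averaged 0.5 FPKM or more were fitted with limma 3.58.1 in R 4.3.3 on log2(FPKM + 1). Group was the only term, and variances were moderated with a trend. Tests were two-sided and Benjamini-Hochberg adjusted over all genes tested, with 0.05 as the threshold. Log2 fold changes, CR minus control, are on the log2(FPKM + 1) scale and are too small for low genes. The fit was tested on simulated data. Sequences are RefSeq windows on GRCr8, matched by symbol, and no coordinate was carried between builds.

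The ribosomal protein genes, the gene lists and the markers were chosen with earlier results of these data known. Genes named with values were those past the threshold and the next by p up to 6, the 5 highest and 5 lowest rows, 4 paralog pairs, the stalk genes, Rpsa, Rps6 and Rps4x, and up to 4 called genes of each list; some genes under this rule are not reported here. Rpl5, Rps16, Rpl35, Rpl21, Rpl12, Rpl30, Rpl35a, Rpl37, Myc, Tsc1, Tbc1d7, Rraga, Mtor and the markers were named after their values had been seen. Replicates differed beyond counting noise (mean chi-square per gene 6.63 to 15.6), so none was counted as a repeat. Y-linked RNA was present in 3 libraries (CR 1, CR 3 and control 3) and was tried as a covariate. Other alternatives were pseudocounts, filters, scalings, voom, no trend, robust moderation, 1 row per symbol, the replicate number as a block, and leaving out each library.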

Additional observations from a re-analysis of the deposited data

How the results depend on the processing

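The median log2 fold change of the 86 ribosomal protein rows was negative under every setting fitted (-0.11 to -0.03), as was the log2 ratio of their summed FPKM without each library in turn (-0.10 to -0.03). The count of lower rows was 4 and moved to 13 with TPM scaling, which was chosen after seeing the data, to 19 with quantile normalization and to 8 with limma-voom on reads; without each library in turn it was 3 to 14. The count of higher rows was 1, a copy of Rpl38 with 22 reads in all, and moved to 0 with no filter on low values, a filter at a mean of 2 FPKM, quantile normalization, no trend, limma-voom on reads and 1 row per symbol, and to 0 to 1 without each library in turn (without control library 2 the 1 row was the Rpl12 copy on chromosome X, adjusted p = 0.0364, and not the Rpl38 copy). The 50 called genes of translation and ribosome making came to 24 to 54 without each library in turn. Shares of all genes called under several of these settings are given above. The cause of these shifts in counts was not tested. Rpl22 and Rps27l kept their calls in all 19 settings, with limma adjusted p up to 0.0365 and 0.0431. Replicate numbers did not pair the libraries: deviations of same-numbered libraries correlated at 0.02, 0.02 and 0.05, and with the replicate number as a block 4 rows were lower and 1 higher, as without it. With 3 libraries per group, p-values that missed the threshold do not show that levels were equal, and copies with few reads per library could show only large differences.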

Other observations

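Mitochondrial ribosomal protein genes (Mrpl and Mrps), which encode the proteins of the separate ribosome inside mitochondria, were counted in the same way. Of the 70 such genes that averaged 0.5 FPKM or more, 18 were higher in CR, 3 were lower and 49 did not pass (limma, Benjamini-Hochberg adjusted p under 0.05). The called share was 30.0%, against 33.9% of all genes tested (17.7% higher and 16.2% lower). Their median log2 fold change was 0.12 and 56 of the 70 values were positive, against a median of -0.08 and 17 positive values in the 86 cytosolic rows. Their levels were lower, with a median of 25.03 FPKM and a highest of 177 FPKM. All CR values lay above all control values in 30 of the 70 and below in 4, against 26.1% and 24.3% of all genes tested. This group was chosen after its values had been seen, and the difference between the groups of genes was not tested.

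Rpl5, which joins the ribosome together with 5S RNA and can bind Mdm2, had 394, 336 and 321 FPKM in CR and 405, 400 and 402 FPKM in control. The groups did not overlap, with CR library 1 near control, and the difference of -0.21 (log2, SE 0.0757) was not past the threshold (limma adjusted p = 0.0717). Over the 64 genes above 100 FPKM, the median coefficient of variation between libraries was 5.25% in CR and 4.71% in control, against 3.85% in CR and 4.97% in control for other genes above 100 FPKM.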
